A study of Mus musculus with 53 samples.

Results

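The genes described here are 39 developmental homeobox and Pax genes that lie outside the Hox clusters, taken as a named list and followed across mouse embryonic stem (ES) cells and 4 cell types. A gene was measured where the array annotation held a probe set carrying its symbol and no other, and where several did, the one brightest on average across the arrays was used. This gave 38 of the 39 genes, out of 18193 genes with such a probe set, and Pax2 was not analysed here. Of the 38 genes, 30 lay above the median of their own array in at least 2 arrays and entered the tests, which covered 13807 genes. The 8 left out were Dlx1, Dlx2, Dlx5, Nkx6-1, Alx1, Alx4, Barx2 and Lhx9.

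Labelled cRNA was measured on 53 Affymetrix mouse arrays in 15 groups, to ask how loss of the Polycomb proteins Ezh2 or Eed alters gene expression in undifferentiated and differentiating ES cells. Undifferentiated cultures (day 0) comprised 7 wild-type arrays from the lines J1, CJ7 and E14tg1, 6 Ezh2-null arrays and 5 Eed-null arrays. Differentiation was started by withdrawing LIF, the cytokine that holds mouse ES cells undifferentiated, and there were 4 wild-type (J1 and CJ7), 4 Ezh2-null and 2 Eed-null arrays at day 2, and 5 wild-type (J1 and CJ7), 5 Ezh2-null and 2 Eed-null arrays at day 6. Day 8 had 2 wild-type arrays (CJ7) and 2 Ezh2-null arrays. The other groups were mesoendodermal cells sorted on GFP driven by the brachyury (T) promoter (2 arrays), neuronal progenitors marked by Sox1-GFP (3 arrays), neuronal stem cells derived from such progenitors (2 arrays) and mouse embryonic fibroblasts, MEF (2 arrays). Each mutant was a single line without a name in the labels, so genotype and line cannot be told apart. The ES cultures had been grown on feeder fibroblasts that were depleted before harvest. The labels call the replicates biological without naming the cultures, so p-values measure the spread between these arrays.

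Homeobox genes encode transcription factors that bind DNA through a homeodomain and give cells positional and lineage identity, and Pax genes encode factors with a paired domain. In ES cells many such genes are silent and carry trimethylation of histone H3 at lysine 27, the mark written by Polycomb repressive complex 2, in which Ezh2 is the catalytic subunit and Eed a core subunit that binds the mark. Their CpG-rich promoters are typical sites of Polycomb binding. None of the arrays measured chromatin, so the values below are RNA levels.

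Values are linear signal units as deposited, with array medians between 50.5 and 63.0. The Ezh2 signal was 52.6 to 245.9 in the Ezh2-null arrays and 493.8 to 2094 elsewhere, whereas the Eed signal in Eed-null arrays (1341 to 3099) overlapped that of wild-type ES cells, so it gives no check of the Eed-null label. Among the cell types, Sox1-GFP cells had Sox1 at 745.5 to 789, T-GFP cells had Mixl1 at 2440 and 1409, and MEF had Col1a1 at 5943 and 7075. In neuronal stem cells 3 of 5 tested neuronal stem cell markers were called higher than at day 0, and 0 lower. The summed signal of the 5 measured markers was 10995.5 to 11297.9, against 582.2 to 686.5 in undifferentiated wild-type cells. The glial marker Gfap, at 98.2 and 96.5 in neuronal stem cells, lay just above the highest undifferentiated wild-type array (92.8), and Sox1 reached 45.5. At days 2 and 6 the arrays fell into a set of 8 and a set of 14 by the differences between probe sets of the same gene. The first set holds replicates 1 and 2 of wild-type and Ezh2-null cells on both days, and the second holds all the others, the Eed-null arrays among them. The wild-type arrays of the first set are all J1 and those of the second are CJ7, but for 1 J1 array at day 6, so set and wild-type line cannot be told apart at day 2 and hardly at day 6. For some of the genes that differ between the sets, values within each set are given below. Because whole cultures were measured, fewer cells of a type and less RNA per cell cannot be told apart.

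Promoter sequences of 5 genes described below are shown as examples of the CpG content in this gene class. Each is the 250 bases before the transcription start in the RefSeq annotation (GRCm38.p6), written 5′ to 3′ on the strand of the gene, with every CG in capitals. Msx1 (chr5:37824586-37824835, minus strand) and Msx2 (chr13:53472781-53473030, minus strand) are paralogues of which the first was lower in both mutants at day 6 and the second was not, Meis1 (chr11:19018970-19019219, minus strand) and Meis2 (chr2:116064620-116064869, minus strand) moved together, and Barx1 (chr13:48662786-48663035, plus strand) was higher in Eed-null cells. These 5 stretches hold 20, 16, 13, 7 and 40 CG pairs in this order, and their GC contents are 68.0%, 61.6%, 59.6%, 47.6% and 85.6%. Not every gene of the list is CpG-rich: the same stretch of Prrx1, which is not shown, holds 4 CG pairs.
Msx1: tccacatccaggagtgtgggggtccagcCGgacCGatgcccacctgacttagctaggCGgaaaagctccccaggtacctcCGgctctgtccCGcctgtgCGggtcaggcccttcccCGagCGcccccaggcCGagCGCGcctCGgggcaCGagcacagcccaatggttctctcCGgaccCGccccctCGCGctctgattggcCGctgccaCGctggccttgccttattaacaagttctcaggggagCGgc
Msx2: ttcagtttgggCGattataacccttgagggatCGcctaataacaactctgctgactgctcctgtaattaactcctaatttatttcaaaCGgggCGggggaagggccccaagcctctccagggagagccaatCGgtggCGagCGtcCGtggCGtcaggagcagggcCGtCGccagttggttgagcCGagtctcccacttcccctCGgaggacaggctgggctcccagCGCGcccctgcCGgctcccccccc
Meis1: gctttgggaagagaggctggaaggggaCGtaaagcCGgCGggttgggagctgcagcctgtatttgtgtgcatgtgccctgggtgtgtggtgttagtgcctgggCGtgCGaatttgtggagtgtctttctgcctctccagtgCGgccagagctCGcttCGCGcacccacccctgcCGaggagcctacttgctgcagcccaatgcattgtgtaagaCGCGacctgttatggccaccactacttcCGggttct
Meis2: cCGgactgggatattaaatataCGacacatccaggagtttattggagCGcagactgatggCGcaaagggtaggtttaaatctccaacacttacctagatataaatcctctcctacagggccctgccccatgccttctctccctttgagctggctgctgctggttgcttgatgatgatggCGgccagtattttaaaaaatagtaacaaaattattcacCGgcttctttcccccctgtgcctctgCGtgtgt
Barx1: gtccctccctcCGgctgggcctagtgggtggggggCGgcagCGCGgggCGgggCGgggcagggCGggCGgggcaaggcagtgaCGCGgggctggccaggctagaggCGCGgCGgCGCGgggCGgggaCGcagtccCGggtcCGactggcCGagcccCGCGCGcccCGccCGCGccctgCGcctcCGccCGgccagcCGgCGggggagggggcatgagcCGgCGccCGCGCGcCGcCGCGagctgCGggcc

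Over windows of 300 bases (250 before and 50 after the start), 27 of the 39 genes had 32 RefSeq windows. The ratio of observed to expected CpG was above 0.6 in 26 of these 32 windows (81.2%), against 47.6% of 21263 windows of 17492 protein-coding genes. The median window held 22 CpG among the listed genes and 13 among all. The letters TATAAA, searched on both strands, occurred in 3.1% of the windows against 12.6% of all windows. TAATTA, the core that many homeodomains bind, occurred in 9.4% against 4.5%, in the windows of Msx2, Prrx1 and Emx2. CCAAT occurred in 16 of the 32 windows, against 38.2% of all windows. These matches describe letters, and no binding was measured. Within the list Irx1 and Irx2, Irx3 and Irx5, Dlx1 and Dlx2, and Six3 and Six2 are neighbours on their chromosomes among protein-coding genes.

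A gene was called at background in a group when none of its arrays lay above the array median, and above background when all did. Of the 38 genes, 7 stayed at background in all 15 groups: the forebrain and branchial arch factors Dlx1, Dlx2 and Dlx5, the ventral neural tube and pancreas factor Nkx6-1, the craniofacial factors Alx1 and Alx4, and Barx2. Their highest array was 59.2, for Alx1 in an Ezh2-null day 8 array. Lhx9, which acts in gonad and limb development, lay above the median in 1 array, a wild-type day 2 array at 60.6. None of these 8 genes rose above the array median in the mutants at any day. En1 (background in 13 groups), Emx2 and Lhx5 (12 each) and Lhx2 (11) were measurable in few groups. At the other end Pax3, Irx1, Six2, Six4, Meis2, Msx1 and Vax1 lay above background in all 15 groups by the chosen probe set. Irx1 and Six2 had no other. The other Vax1 probe set lay above the array median in 0 arrays and the second Msx1 probe set in 18. The least bright of the other probe sets did so in 3 arrays for Pax3, 19 for Meis2 and 3 for Six4.

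**Figure D1:**
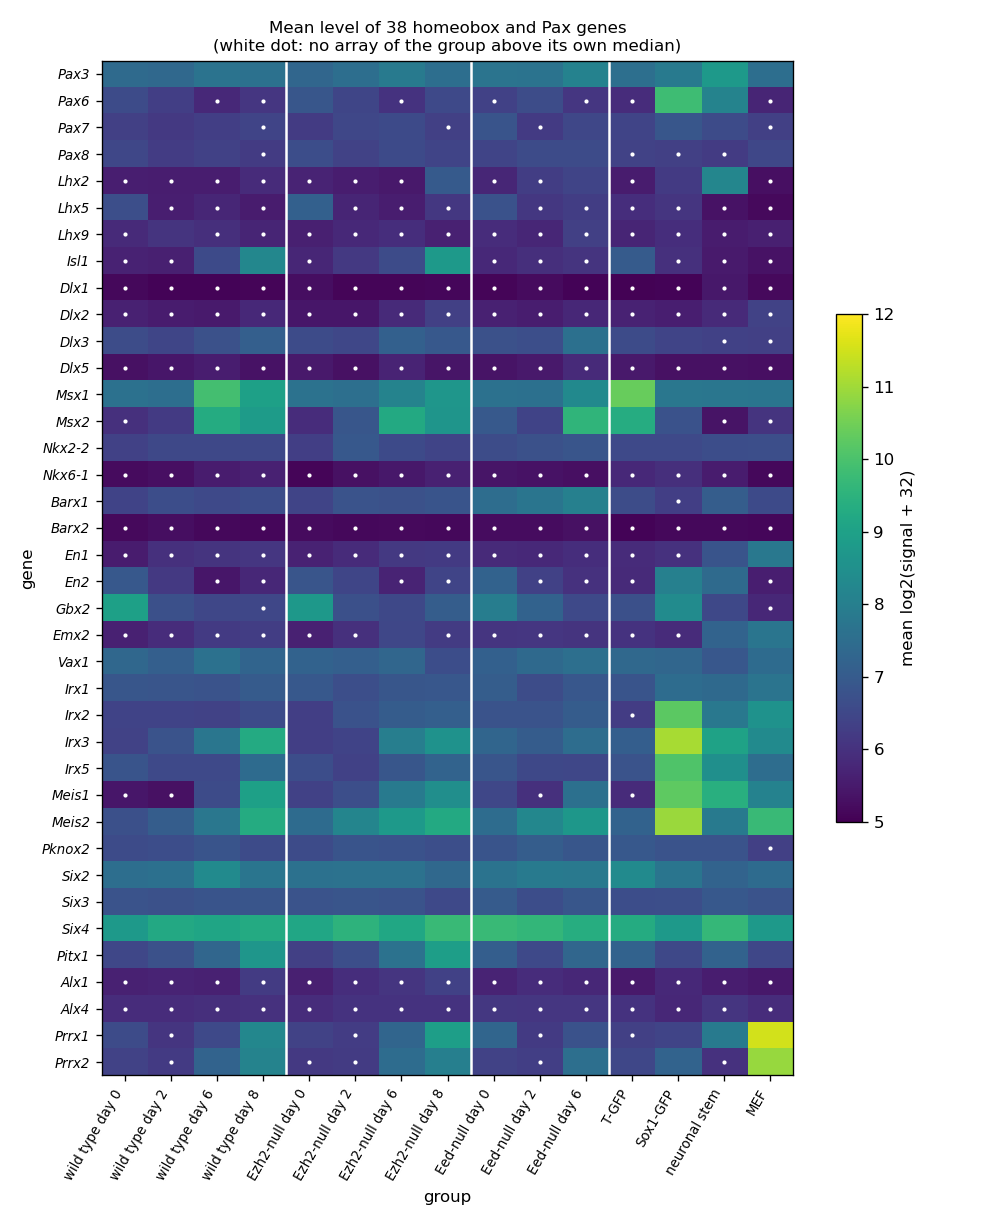
Mean level of the 38 measured genes (rows) in the 15 groups (columns), as mean log2(signal + 32). White dots mark groups in which no array lay above its own median, which is the case in all 15 groups for 7 genes.

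The number of genes above background differed between groups. In wild-type cells 12 genes were above background at day 0, 8 at day 2, 13 at day 6 and 20 at day 8. In Ezh2-null cells these counts were 15, 13, 18 and 21, and in Eed-null cells 18, 18 and 19 at days 0, 2 and 6. Neuronal stem cells had 22, Sox1-GFP cells 19, MEF 17 and T-GFP cells 16. Groups of fewer arrays pass this rule more easily, so the counts are compared only as a description. With the 75th percentile of the array as the limit, 18 genes stayed at background in all 15 groups, among them Pax7, Pax8, Nkx2-2, Six3, Irx1 and Pknox2, which stayed under 2-fold in every comparison made. Pax8, a thyroid and kidney factor, ranged from 27.6 to 86.1 over all 53 arrays, and Nkx2-2, a ventral neural tube factor, from 31.7 to 121.

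Few of these genes differed between mutant and wild-type cells of the same day. A gene is called changed when limma's adjusted p, taken over all 13807 genes in the comparison, was under 0.05 and the difference on the log2(signal + 32) scale was at least 2-fold. At day 0, 0 of the 30 tested genes changed in Ezh2-null cells (0.0507% of all genes did). Of the 30, 5 had an unadjusted p under 0.05 in limma, as had 1480 of the 13807 genes. At day 2, Meis1 and Meis2 were higher in Ezh2-null cells, 6.67% of the 30 genes against 0.123% of all genes. At day 6, Meis1 was higher and Msx1 lower, 6.67% against 3.03%. At day 8, Lhx2 was higher, 3.33% against 1.06%. In Eed-null cells Meis1 and Barx1 were higher and Gbx2 lower at day 0, 10% of the 30 genes against 2.26% of all genes. Meis2 and Barx1 were higher at day 2, 6.67% against 1.04%, and Barx1 was higher and Msx1 lower at day 6, 6.67% against 3.1%. The Eed-null arrays at day 6 all belong to the second set, and with the set as a block 5 genes were called there, with Meis1, Meis2 and Dlx3 added as higher. In both mutants the shares at the days after day 0 rest on 1 or 2 genes and are read as no more than that. The day 2 calls of Meis1 and Meis2 among them were fragile, as given below. Over the 30 genes the median log2 difference at days 0, 2, 6 and 8 was -0.01, 0.13, 0.2 and -0.06 in Ezh2-null cells, against 0, 0.02, 0 and 0.03 over all genes. In Eed-null cells it was 0.24, 0.25 and 0.22 at days 0, 2 and 6, against 0.04, -0.01 and 0. All mutant comparisons of a day share their wild-type arrays.

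The Msx genes, which encode repressors induced by BMP signalling in mesoderm, neural crest and limb, gave the firmest difference. Msx1 signal in undifferentiated wild-type cells was 125 at the lowest, 171 at the median and 212 at the highest, and stood at 155, 168, 133 and 155 at day 2. At day 6 the wild-type arrays reached 909, 604, 831, 1188 and 1279. All wild-type arrays at day 6 thus lay above all earlier ones. The Ezh2-null arrays at day 6 were at 342, 315, 191, 213 and 224, and the Eed-null arrays at 271 and 308. No mutant array reached the lowest wild-type array. The difference from wild type at day 6 was -1.77 ± 0.16 on the log2 scale (SE, limma adjusted p = 1.1e-11) in Ezh2-null cells and -1.58 ± 0.21 (adjusted p = 2.5e-07) in Eed-null cells. The change from day 0 to day 6 was itself smaller than in wild type, with a difference of -1.8 ± 0.21 for Ezh2-null cells (adjusted p = 4.3e-08) and -1.56 ± 0.25 for Eed-null cells (adjusted p = 2e-05). These 4 results were called under every alternative run and without any single array. By day 8 wild-type Msx1 had come down to 505 and 436, and the Ezh2-null arrays stood at 425 and 332, a difference that was not called.

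Msx2 did not follow this pattern. Wild-type Msx2 was 22.9 to 41.7 (median 25.6) at day 0 and 473, 482, 662, 803 and 629 at day 6. The Ezh2-null arrays at day 6 were at 502, 569, 675, 511 and 630.0, and the Eed-null arrays at 728 and 727, so that the 3 genotypes overlapped or lay close together. The rise from day 0 to day 6 was 3.34 ± 0.16 in wild-type, 3.36 ± 0.17 in Ezh2-null and 2.63 ± 0.23 in Eed-null cells. The Eed-null rise began from a higher level, since Msx2 in Eed-null cells at day 0 was 94.4, 117, 86.4, 90.7 and 71.1, above all 7 wild-type arrays. That difference of 0.99 ± 0.16 (adjusted p = 3.7e-06) fell just short of 2-fold.

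At day 6 mesoendoderm markers differed between genotypes in the same direction as Msx1. T-GFP mesoendodermal cells had the highest mean Msx1 of all groups, with arrays at 1563 and 1062, against 157 to 218 in Sox1-GFP cells. The summed signal of 3 measured mesoendoderm markers (Mixl1, Eomes and Mesp1) was 733 to 4110 at day 6 in wild type. It was 158.5 to 261 in the Ezh2-null arrays and 173 to 179 in the Eed-null ones. Mixl1 was called lower in both mutants (-3.53 in Ezh2-null and -3.9 in Eed-null cells), as were the 2 other markers. In the first array set the wild-type Mixl1 signal was 283 and 382 and in the second 1814 to 1914, while Msx1 was 604 to 909 and 831 to 1279. In wild type the marker sum had already risen at day 2, to 587 to 857 from 147 to 240 at day 0, while Msx1 had not. At day 8 the sum was 294 to 396 in wild-type and 196.5 to 215.8 in Ezh2-null cells. The part of mesoendodermal cells in the Msx1 difference was not tested. Pluripotency markers also differed at day 6, where 3 of 4 were called higher in each mutant. Six2, a factor of kidney progenitors and head mesenchyme, showed a smaller form of the Msx1 pattern. Its wild-type day 6 arrays were at 232, 210.1, 317, 385 and 375, and the Ezh2-null arrays at 155, 176, 135, 190.0 and 195. The difference of -0.71 ± 0.12 (adjusted p = 1.3e-05) passed the adjusted p and not the 2-fold minimum. Eed-null Six2 was 209 and 180.1, also below all wild-type arrays (-0.54 ± 0.16, adjusted p = 0.016), and the change from day 0 differed from wild type in both mutants (adjusted p = 0.00046 and 0.013).

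**Figure D2:**
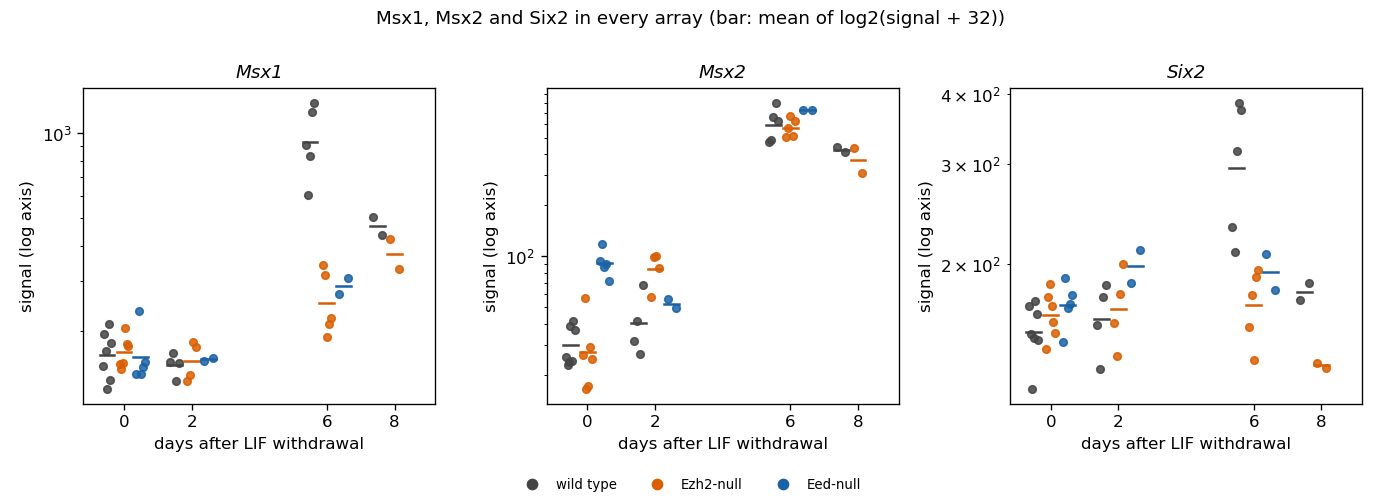
Signal of Msx1, Msx2 and Six2 in every array by day after LIF withdrawal, on log axes, with bars at the mean of log2(signal + 32). At day 6 the wild-type Msx1 arrays (604 to 1279) lie above all Ezh2-null and Eed-null arrays (191 to 342), whereas Msx2 lies between 473 and 803 in the 3 genotypes.

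The Meis genes encode TALE homeodomain proteins that bind DNA together with Hox and Pbx proteins. Mutant arrays of both read above the wild-type ones at days 0 and 2, but not every difference passed the test. Wild-type Meis1 at day 0 was 3.6 to 25.7 (median 9.6), Ezh2-null Meis1 was 36.6 to 75.5 (median 49.8), and Eed-null Meis1 was 55.5, 39.7, 56.1, 62.8 and 75.8. No mutant array overlapped the wild-type range. The difference was 1.06 ± 0.28 in Eed-null cells (adjusted p = 0.0019) and 0.95 ± 0.26 in Ezh2-null cells (adjusted p = 0.064), so the Ezh2-null difference did not pass the test at this day. Wild-type Meis2 was 53.8 to 80.8 (median 77.7), against 100.3 to 209.6 (median 137) in Ezh2-null cells and 102, 126, 155, 195 and 159 in Eed-null cells, again without overlap. The Meis2 difference of 0.77 ± 0.22 in Eed-null cells passed the adjusted p (0.0048) and not 2-fold. In Ezh2-null cells the Meis2 difference at day 0 did not pass the adjusted p. The Meis1 call in Eed-null cells at day 0 was close to the 2-fold minimum: it was 0.99 without Eed-null replicate 5, and it was lost with quantile normalisation, with each array centred on its median, with probe sets averaged and against wild-type replicates 4 to 7 only. In the same Eed-null arrays 6 of 10 fibroblast markers and 3 of 6 endoderm markers were called higher than in wild type, and MEF had Meis1 at 220 and 265. The part of such cells in the Meis1 and Meis2 differences was not tested.

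At day 2 wild-type Meis1 was 10.5, 11.3, 7.5 and 2.9 and Ezh2-null Meis1 93.0, 133, 35.8 and 50.5. The difference was 1.38 ± 0.33 (adjusted p = 0.028). Eed-null Meis1, at 27.0 and 35.2, was not called. Meis2 was 108, 137, 79.7 and 85.8 in wild-type cells, 284, 357, 207 and 212 in Ezh2-null cells (1.13 ± 0.27, adjusted p = 0.025) and 249 and 290.3 in Eed-null cells (1.18 ± 0.33, adjusted p = 0.027). Wild-type and mutant arrays did not overlap for either gene. With all arrays in 1 fit, these day 2 calls were fragile: Meis1 in Ezh2-null cells was lost without wild-type replicate 1, 3 or 4 or Ezh2-null replicate 1 or 2 (adjusted p 0.054 to 0.12), and Meis2 without wild-type replicate 3 or 4 or Ezh2-null replicate 1 or 2 (0.067 to 0.088). Meis2 in Eed-null cells was lost without wild-type replicate 3 or either Eed-null array (0.054 to 0.27). Both Ezh2-null calls were also lost when cell line entered as a random block (adjusted p = 0.42 for Meis1 and 0.36 for Meis2) and when the arrays compared were fitted alone (0.18 and 0.12). When probe sets were averaged they were lost as well (0.057 and 0.092), and with the most variable probe set Meis2 was lost (0.16). The Eed-null Meis2 call was lost with the cell line as a random block (0.14), the mean of all probe sets (0.27) and the most variable one (0.39), and with the replicate number as a block (0.07), although Eed-null numbers do not pair with wild type. Part of the spread lay between the array sets, or the lines they hold, and with the set as a block the adjusted p was 2.2e-07 for Meis1 and 2.8e-05 for Meis2 in Ezh2-null cells and 2.2e-05 for Meis2 in Eed-null cells. Within the first set Meis1 was higher in Ezh2-null cells by 1.74 (adjusted p = 2.3e-05) and within the second by 1.01 (adjusted p = 0.0036). Same-numbered Ezh2-null and wild-type arrays deviated together at days 2 and 6. The sets follow these numbers, so a block by replicate number is not separate from a block by set. With the replicate number as a block Meis1 kept its call (adjusted p = 0.021), as did Meis2 in Ezh2-null cells (0.015).

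At day 6 Meis1 was 176, 185, 31.2, 22.6 and 22.2 in wild-type cells and 432, 353, 128.3, 113 and 126 in Ezh2-null cells. The genotypes overlapped, because in each the first 2 arrays, those of the first set, stood well above the other 3. Within the second set the wild-type arrays lay at 22.2 to 31.2, the Ezh2-null arrays at 113 to 128.3 and the Eed-null arrays at 156 and 162, without overlap. The difference between Ezh2-null and wild-type Meis1 was 1.26 ± 0.3 over all arrays (adjusted p = 0.0013), 0.99 within the first set and 1.43 within the second (adjusted p = 0.0028 and 2.4e-08), and it was not called when the arrays compared were fitted alone. Eed-null Meis1 was not called over all arrays, and with the set as a block it was higher than wild type by 1.65 (adjusted p = 2.1e-08). Meis2 behaved alike, at 398, 329, 123, 118 and 113 in wild-type, 696, 563, 388, 264 and 277 in Ezh2-null and 387 in both Eed-null arrays. Its difference of 1.0 ± 0.24 in Ezh2-null cells (adjusted p = 0.0013) stood at the 2-fold minimum without passing it. In Eed-null cells Meis2 was higher by 0.92 over all arrays and by 1.4 with the set as a block (adjusted p = 1.3e-06). At day 8 the order was gone: wild-type Meis1 was 463 and 477 and Ezh2-null Meis1 426 and 237. All day 8 arrays lay on the side of the first set, and the wild-type ones are CJ7, whereas those of the first set at day 6 are J1. Both genes were also high in Sox1-GFP cells (Meis1 1012 to 1392, Meis2 1788 to 2088) and in MEF (Meis1 220 and 265, Meis2 789 and 869), and low in T-GFP cells (Meis1 26.3 and 25.5). In Ezh2-null cells 0 of the 10 fibroblast markers were called higher than in wild type at day 0 or day 2, and at day 6 1 was higher and 1 lower. Their summed signal at days 0 and 2 was 455 to 1514 and 569.9 to 1159, against 381 to 1824 and 482 to 742 in wild-type cells. At day 6 it was 1925 to 6767 (median 2605) in Ezh2-null and 1937 to 2459 (median 2083) in wild-type cells. The part of fibroblasts in the Ezh2-null Meis1 and Meis2 differences was not tested. The mean over all probe sets of Meis1 gave smaller differences (0.58 at day 6, adjusted p = 0.00022, and 0.48 at day 2, adjusted p = 0.057), and 1 of its 3 probe sets lay above the median in 0 arrays.

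**Figure D3:**
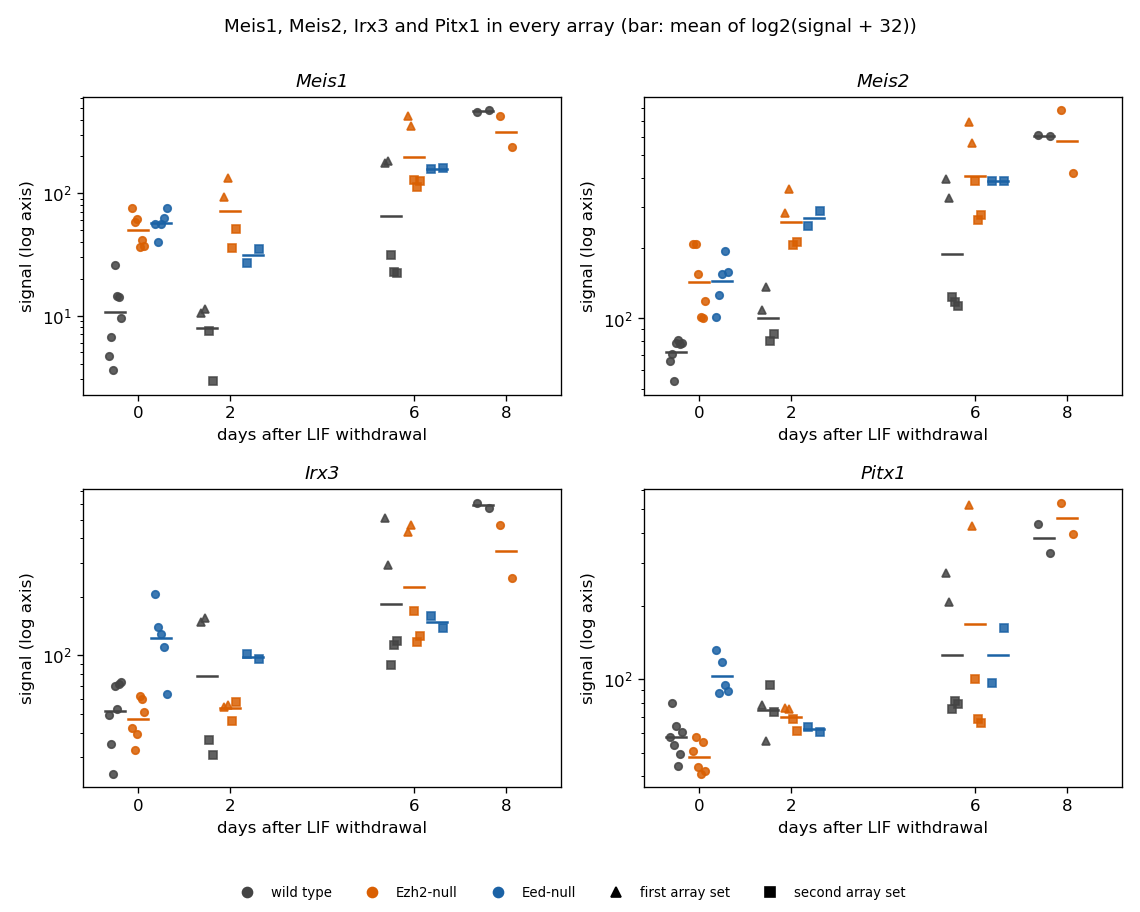
Signal of Meis1, Meis2, Irx3 and Pitx1 in every array by day after LIF withdrawal, on log axes, with bars at the mean of log2(signal + 32). Triangles mark the first array set and squares the second: at day 6 all 4 genes are higher in the triangles than in the squares of the same genotype, and within each set Meis1 is higher in Ezh2-null than in wild-type cells.

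Barx1, a homeobox gene of stomach and branchial arch mesenchyme, was higher in Eed-null cells at all 3 days and was not called in Ezh2-null cells. At day 0 it was 57.4 at most in wild-type cells (lowest 41.8, median 54.0) and 45.7 to 65.0 (median 54.7) in Ezh2-null cells. The Eed-null arrays were at 135, 185, 145, 145 and 141. Ezh2-null cells thus overlapped wild type. At day 2 the Eed-null arrays stood at 164 and 198 against 74.9, 64.8, 72.1 and 66.5 in wild-type and 82.2, 80.7, 78.1 and 75.2 in Ezh2-null cells. At day 6 they stood at 239 and 225.4. The wild-type arrays of that day were at 67.7, 60.9, 56.6, 70.9 and 52.1 and the Ezh2-null arrays at 75.5, 68.2, 69.7, 79.1 and 83.4. Every Eed-null array thus lay above every wild-type and Ezh2-null array of its day. The difference from wild type was 1.1 ± 0.07 at day 0 (adjusted p = 3.9e-16), 1.06 ± 0.1 at day 2 (1.2e-09) and 1.5 ± 0.1 at day 6 (6.5e-15). The difference between the mutants, tested directly after the data were seen, was 1.07 ± 0.07, 0.93 ± 0.1 and 1.3 ± 0.1 at the 3 days (adjusted p = 3.8e-15, 3.9e-08 and 1.4e-12). Without Eed-null replicate 2 the day 2 difference from wild type came to 0.95, below 2-fold.

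Eed-null cells at day 0 also carried more fibroblast signal. Of 10 fibroblast markers, 6 were called higher than in wild type, and their summed signal was 529 to 7409 (median 4400) against 381 to 1824 in wild-type and 34398 to 39425 in MEF. Of 6 endoderm markers, 3 were called higher. Barx1 was 55.8 and 71.3 in MEF, and it was 141 in Eed-null replicate 5, which had the lowest fibroblast sum of its group. The part of fibroblasts or endoderm in the Barx1 difference was not tested. Prrx1, a gene of limb and craniofacial mesenchyme, was at 192, 164, 110 and 139 in Eed-null replicates 1 to 4, 51.0 in replicate 5, and 2535 and 3323 in MEF. Its Eed-null difference at day 0 (0.69 ± 0.2, adjusted p = 0.005) stayed under 2-fold.

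Gbx2, which patterns the hindbrain and in ES cells acts downstream of LIF and Stat3, was the gene of the list lower in undifferentiated Eed-null cells. It was 394 to 576 (median 472) in wild-type, 366 to 476 (median 375) in Ezh2-null and 131, 219, 245, 233 and 296 in Eed-null cells. All Eed-null arrays lay below all others. The difference was -1.02 ± 0.14 (adjusted p = 2.2e-07), and it passed below 2-fold without wild-type replicate 1 or 3 or Eed-null replicate 1 (down to -0.86, without the last). After LIF withdrawal Gbx2 fell in all genotypes, to 54.9 to 105 in wild-type cells at day 2 and 33.1 to 83.7 at day 6, and to 65.0 and 58.3 in Eed-null cells at day 6. From their lower start the Eed-null cells fell less, with a difference of the day 6 changes of 1.06 ± 0.25 (adjusted p = 0.0019), which was 0.91 without Eed-null day 0 replicate 1 and 0.94 without wild-type day 6 replicate 5.

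Lhx2, a LIM-homeobox gene of forebrain and hair follicle progenitors, was at background in wild-type cells (8.8 to 30.4 over all days). Ezh2-null arrays were at 130.2 and 65.3 at day 8, against 30.4 and 21.4 in wild type (1.12 ± 0.2, adjusted p = 0.00037). Without Ezh2-null replicate 1 this was 0.75 (adjusted p = 0.085), so the call rests on that array. In Eed-null cells Lhx2 was 44.4 and 46.2 at day 2 and 76.3 and 38.3 at day 6, above all wild-type arrays of the day. Those differences of 0.71 ± 0.17 and 0.88 ± 0.17 passed the adjusted p (0.011 and 0.00014) and not 2-fold. Ezh2-null Lhx2 at day 6 was 4.1 to 19.1, as low as in wild type. The difference between the mutants at day 6 was 0.96 ± 0.17 (adjusted p = 0.00019).

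Among the Iroquois genes, which pattern the neural plate and act in heart and limb, Irx2 showed a small rise in both mutants at day 6. It was 36.6 to 67.1 in wild-type, 87.9 to 113 in Ezh2-null and 101 and 96.1 in Eed-null arrays, without overlap (0.67 ± 0.11, adjusted p = 4.5e-06, and 0.66 ± 0.14, adjusted p = 0.00077). Irx3 in Eed-null cells at day 0 was 207, 141, 129, 110.2 and 63.0 against 24.6 to 72.8 in wild type, where the array within the wild-type range was replicate 5. At day 2 wild-type Irx3 was 148.4 and 156.4 in the first set and 30.6 and 36.8 in the second. Ezh2-null Irx3 was 54.5 and 55.7 in the first and 46.1 and 57.8 in the second. Within the first set it was lower in Ezh2-null cells (-1.08, limma adjusted p = 0.047), and over all arrays the difference of -0.37 was not called. Irx1 ranged from 56.8 to 124 over all ES cell arrays, and neither it nor Irx5 passed a test of mutant against wild-type cells on the same day. Six4, an early myogenic and placodal factor, was 565 to 914 in Eed-null cells at day 0 against 357 to 463 in wild type (0.97 ± 0.12, adjusted p = 3.1e-08), again short of 2-fold.

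**Figure D4:**
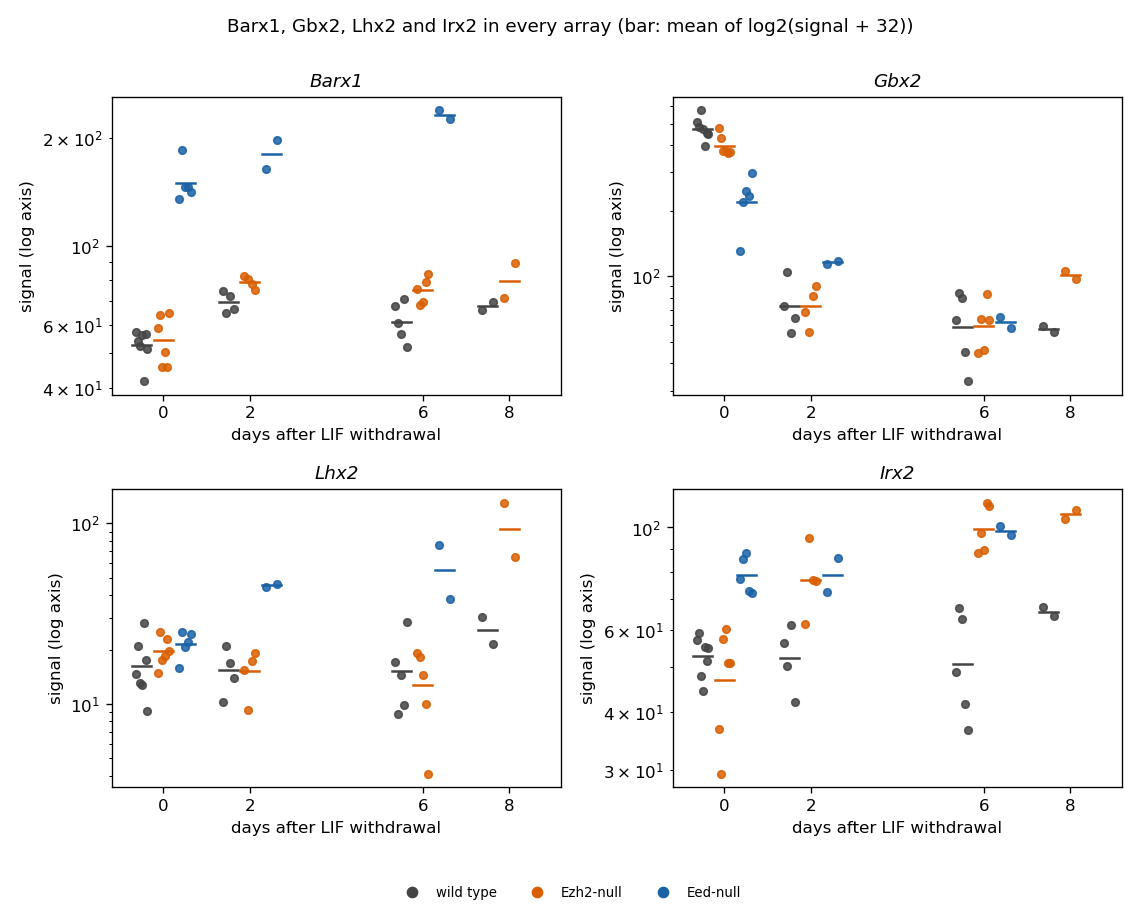
Signal of Barx1, Gbx2, Lhx2 and Irx2 in every array by day after LIF withdrawal, on log axes, with bars at the mean of log2(signal + 32). The Eed-null Barx1 arrays (135 to 239) lie above all others at each day, and the Eed-null Gbx2 arrays at day 0 (131 to 296) lie below the wild-type (394 to 576) and Ezh2-null arrays (366 to 476).

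The remaining genes moved little with genotype. When the 2-fold minimum was dropped, 13 of the 30 genes passed the adjusted p in Eed-null cells at day 0, 12 of them higher (41.7% of all genes passed), and 0 did in Ezh2-null cells (0.797% of all genes). The added ones at day 0 were Pax3, Pax7, Irx2, Irx3, Six4, Meis2, En1, Msx2, Emx2 and Prrx1, with differences from 0.28 to 0.99. Over all genes the share of higher calls in this comparison was 67.3%, and it was 34.6% when each array was centred on its median, which shifted the median of all genes to -0.12, so small rises here depend on the scaling. Under that centring 1 of the 3 genes called at day 0, Gbx2, kept its call, and Barx1 and Meis1 came under 2-fold. At day 6, 8 of the 30 passed in Ezh2-null cells (25% of all genes) and 9 in Eed-null cells (15.3% of all genes), so that these counts lie near the background in Ezh2-null cells and at day 0 in Eed-null cells. The added genes in Ezh2-null cells were Dlx3, Irx2, Six2, Meis2, Emx2 and Prrx1, and in Eed-null cells Pax3, Lhx2, Dlx3, Irx2, Six2, Meis2 and En2. Dlx3, a gene of placenta and epidermis, was 150.4 and 167 in Eed-null cells at day 6. The wild-type arrays were at 116, 116, 49.1, 57.8 and 55.1, and with the array set as a block the difference was 1.12 (adjusted p = 1.8e-07). Pax6, Pax8, Nkx2-2, Irx1, Irx5, Six3, Lhx5, Pitx1, Isl1, Vax1, Prrx2 and Pknox2 passed the adjusted p in 0 of the 7 tests of mutant against wild-type cells at matched days over all arrays. For Isl1, a gene of motor neurons and cardiac progenitors, this covers opposite differences in the array sets. In the first set at day 6 Ezh2-null Isl1 was 293 and 184 against 126 and 78.2 in wild type (1.01, adjusted p = 0.0047). In the second it was 15.5, 16.7 and 20.2 against 43.0, 35.5 and 56.8 (-0.63, adjusted p = 0.0037), and the genotypes did not overlap in either set. Prrx1 and Pitx1 in Ezh2-null cells at day 6 were higher by 1.04 (adjusted p = 0.0045) and 0.89 (adjusted p = 0.00048) in the first set and differed by 0.56 (adjusted p = 0.027) and -0.02 (adjusted p = 0.93) in the second.

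After LIF withdrawal more genes on the list were called at each later day, but array set and line also differed between the days, as given below. In wild-type cells 2 genes fell by day 2, Gbx2 (-2.27 ± 0.15) and the forebrain LIM gene Lhx5 (-1.09 ± 0.16), 6.67% of the 30 against 3.43% of all genes. At day 6, 5 had risen (Msx1, Msx2, Irx3, Meis1 and Meis2) and 2 had fallen (Gbx2 and the midbrain gene En2), 23.3% against 10.3%. At day 8, 9 had risen, now with Pitx1, Isl1, Prrx1 and Prrx2, and 3 had fallen, now with Lhx5, 40% against 11.4%. The median difference of the 30 genes was 0.18 at day 6 and 0.25 at day 8, against 0.04 and 0.05 over all genes. Lhx5 in wild-type cells at day 0 was 34.5 to 45.4 in replicates 1 to 3 and 89.2 to 117 in replicates 4 to 7, and 12.5 to 22.1 at day 2. Without wild-type day 0 replicate 5 its day 2 fall was -0.99.

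The wild-type rises at day 6 depended on the array set for some genes. Irx3 was 511 and 293 in the first set and 88.8 to 119 in the second, Pitx1, a hindlimb and pituitary gene, was 272 and 207 against 75.7 to 81.3, and Isl1 was 126 and 78.2 against 35.5 to 56.8. In the second set alone the rises from day 0 of Irx3 (0.73), Meis1 (0.42) and Meis2 (0.53) were under 2-fold, and in the first set alone they were 2.33, 2.31 and 1.92. Over all arrays Meis1 and Meis2 each lost the call without wild-type day 6 replicate 1 or replicate 2 (lowest 0.89 and 0.85). In wild-type and Ezh2-null cells at day 6, 7 and 8 genes were at least 2-fold higher in the first set without overlap, among them Irx3, Isl1, Meis1, Meis2, Pitx1 and Prrx1 in both. Day 8 gave 611 and 576 for Irx3, 435 and 330.2 for Pitx1, 286 and 254 for Isl1 in wild type. Prrx1 was 262 and 277 there and Prrx2 242 and 250.4. By the same probe set differences all day 8 arrays lay on the side of the first set, and the wild-type ones are CJ7 only. In the first set alone Pitx1 (1.58), Isl1 (1.37) and Prrx2 (1.09) were already called higher at day 6. For such genes day and array set cannot be told apart. Markers of other cell types also rose over these days. At day 8, 6 of 10 fibroblast markers (summed signals of 7411 and 8485) and 4 of 6 endoderm markers were called higher than at day 0. At day 6 these counts were 5 and 3 in wild-type cells. Over the wild-type day 6 arrays of both sets the summed signal was 1937 to 2459 for fibroblast and 871 to 1346 for endoderm markers. The part of such cells in the rises was not tested.

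The mutants made most of the same changes after LIF withdrawal. In Ezh2-null cells from day 0 to day 6, 6 genes rose (Irx3, Meis1, Meis2, Pitx1, Msx2 and Prrx2) and 3 fell (Lhx5, En2 and Gbx2), 30% of the 30 against 16.3% of all genes. Beside these, 5 of 10 fibroblast and 3 of 6 endoderm markers rose. In Eed-null cells 4 rose (Meis1, Meis2, Msx2 and Prrx2) and 2 fell (En2 and Gbx2), 20% against 10.1%, while 0 of 10 fibroblast markers rose and 3 fell. Without Ezh2-null day 6 replicate 1 the Pitx1 rise was 0.96. In the second array set alone the Ezh2-null rises of Meis1, Meis2 and Pitx1 were not called, and 3 genes rose and 3 fell. In the first set alone 8 rose and 3 fell. Ezh2-null Pitx1 at day 6 was 425 and 517 in the first set and 65.9 to 99.8 in the second. For Irx3 these values were 433.5 and 466.1 against 116.8 to 168.8. Eed-null Meis1 (1.1 ± 0.39, adjusted p = 0.024) lost its call without either day 6 array. Testing the change itself against that of wild type called 1 gene in Ezh2-null cells, Msx1 (3.33% against 3.09% of all genes), and 2 in Eed-null cells, Msx1 and Gbx2 (6.67% against 4.69%). En2 fell in all 3 genotypes: it was 67.7 to 122 (median 90.4) in wild-type cells at day 0 and 8.0 to 15.9 at day 6, 11.3 to 25.6 in Ezh2-null cells and 35.7 and 28.5 in Eed-null cells. The Eed-null day 6 level was above wild type (0.56 ± 0.17, adjusted p = 0.019) without reaching 2-fold.

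The direct test of Eed-null against Ezh2-null cells, added after the data were seen, called Barx1 and Msx2 higher in Eed-null cells at day 0 (6.67% of the 30 genes against 2.2% of all). At day 2 it called 0 genes (0.659% of all genes), and 3 of the 30 had an unadjusted p under 0.05 in limma, as had 2513 of the 13807 genes. At day 6 it called Barx1 higher (3.33% against 0.739%). Ezh2-null Msx2 at day 0 was 16.4 to 56.9 (median 25.6), and the difference of 1.06 ± 0.17 (adjusted p = 2.4e-06) came to 1.0 without Ezh2-null replicate 3 and 0.99 without Eed-null replicate 2. Centring each array on its median left neither Barx1 nor Msx2 at 2-fold at day 0.

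Sox1-GFP neuronal progenitors had high levels of Iroquois, Meis and Pax6 transcripts. Against undifferentiated wild-type cells 7 genes were higher and 0 lower, 23.3% of the 30 against 13.4% of all genes. Irx3 was 2434, 2199 and 1796, against 24.6 to 72.8 (median 52.8) in undifferentiated wild-type cells (4.69 ± 0.35, adjusted p = 3.5e-15). Irx2 was 1018, 1051 and 1520 (3.83 ± 0.12, adjusted p = 8.6e-29), and Irx5 was 1096, 1192 and 881 (3.26 ± 0.18). The wild-type day 0 arrays reached 59.2 for Irx2 and 108 for Irx5, so these 3 genes were separated by a wide margin. Irx1, by contrast, was 133, 156 and 146 (0.6 ± 0.11). Meis1 (1246, 1392 and 1012) rose by 4.86 ± 0.33 and Meis2 (1997, 2088 and 1788) by 4.26 ± 0.26. Pax6, a master gene of eye and forebrain development, was 902, 891 and 850.3 against 51.4 to 85.4 (3.24 ± 0.15). En2 was 261, 259 and 190.4, a rise of 1.12 ± 0.14 that was not called with quantile normalisation.

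T-GFP mesoendodermal cells had a short list: Msx1, Msx2 and Isl1 were higher and En2 and Gbx2 lower than at day 0, 16.7% of the 30 against 9.5% of all genes. Msx2 was 981 and 381 (3.38 ± 0.22) and Isl1 was 146 and 63.1 against 12.6 to 28.1 (1.35 ± 0.39, adjusted p = 0.0051). Isl1 was 0.9 without T-GFP replicate 1, and the En2 fall was not called against wild-type replicates 4 to 7 only. Of the 30 genes, 8 were higher and 2 lower in Sox1-GFP than in T-GFP cells, a comparison added after the data were seen (33.3% against 10.3% of all genes). The higher ones were Pax6, Irx2, Irx3, Irx5, Meis1, Meis2, En2 and Gbx2, and the lower ones Msx1 (-2.6 ± 0.22) and Msx2 (-2.57 ± 0.25).

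Neuronal stem cells differed from undifferentiated cells in 13 genes, 11 of them higher, 43.3% of the 30 against 23.2% of all genes. Lhx2 stood out at 265 and 266 against 9.1 to 28.2 at day 0 (2.62 ± 0.16, adjusted p = 2e-18). Emx2, a cortical and urogenital factor, was 120 and 118 (1.6 ± 0.13), Pax3, a neural crest and dorsal neural tube factor, 419 and 396 (1.37 ± 0.13), and En1 87.9 and 74.0 (1.28 ± 0.14). Irx3 was 502 and 476, Irx5 355 and 296, Meis1 672 and 627, and Prrx1 189 and 207. These were higher too, as were Pax6, Irx2 and Meis2. The lower genes were Lhx5, at 5.5 and 11.9, and Gbx2, at 63.0 and 55.3. Set against the Sox1-GFP progenitors, in a comparison added after the data were seen, 3 genes were higher and 8 lower (36.7% against 14.3% of all genes). Lhx2 (2.03 ± 0.18), Emx2 (1.39 ± 0.15) and Prrx1 (1.42 ± 0.31) were higher. Irx2 at 190.3 and 194 (-2.43 ± 0.15), Meis2 at 209 and 197 (-3.08 ± 0.34), Pax6 at 278 and 221 (-1.7 ± 0.2), Irx3, Irx5, Gbx2, Msx2 and Prrx2 were lower. Meis1 was not among them.

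MEF were marked by the paired-related genes of limb mesenchyme. Prrx1 was 2535 and 3323 and Prrx2 1724 and 2080, against 49.8 to 80.0 and 35.4 to 74.7 at day 0 (4.93 ± 0.27 and 4.52 ± 0.17). Of the 30 genes, 8 were higher and 3 lower, 36.7% against 24.1% of all genes. En1 at 175 and 207 (2.25 ± 0.14), Emx2 at 176 and 184 (2.09 ± 0.13), Irx2 at 328 and 371 (2.17 ± 0.13), Irx3 at 284 and 308, Meis1 and Meis2 were also higher. Lhx5 at 3.0 and 6.0, En2 at 16.2 and 15.7 and Gbx2 at 21.3 and 24.1 were lower. En1 and Emx2 were thus above background in MEF and neuronal stem cells and in no other group in all arrays.

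**Figure D5:**
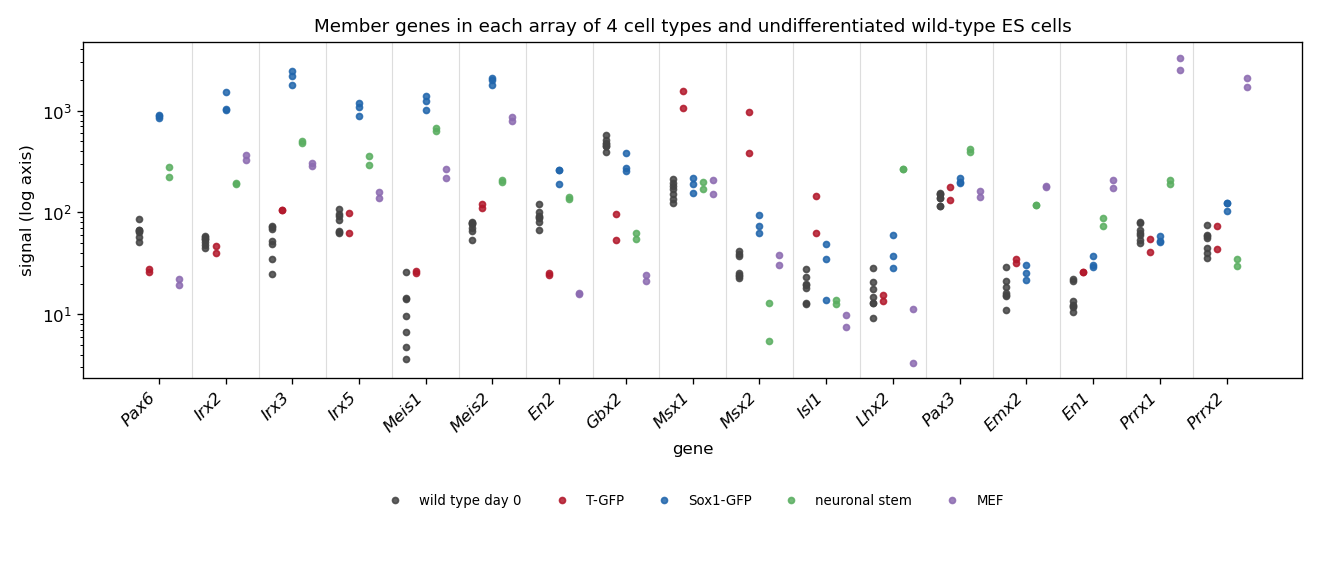
Signal of 17 of the genes in each array of undifferentiated wild-type ES cells, T-GFP, Sox1-GFP, neuronal stem cells and MEF, on a log axis. Irx2, Irx3, Irx5, Meis1, Meis2 and Pax6 are highest in Sox1-GFP cells, Msx1 and Msx2 in T-GFP cells, Lhx2 and Pax3 in neuronal stem cells and Prrx1 and Prrx2 in MEF.

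Of other homeobox genes, a separate list, 52 were tested. At day 6, 0 of the 52 were higher and 6 lower in Ezh2-null cells than in wild type (3.03% of all genes were called), and 0 were higher and 5 lower in Eed-null cells (3.1%). No test compared this list with the genes above, and Mixl1 in it is also a mesoendoderm marker used above. Those with the smallest adjusted p in Ezh2-null cells were the mesendoderm and organiser genes Lhx1 (-3.07 ± 0.18), Mixl1 (-3.53 ± 0.3) and Gsc (-1.9 ± 0.19), and Pbx3 (-1.12 ± 0.15). The median difference of the 52 genes was -0.04 in Ezh2-null and 0.02 in Eed-null cells.

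For some genes another probe set told a different story from the chosen one. The probe set with the highest mean for Pax7, a factor of dorsal neural tube and muscle progenitors, lay at 75.1 to 98.2 in Sox1-GFP cells and 25.9 to 121 over all arrays. Another Pax7 probe set read 451, 580.4 and 627 in Sox1-GFP cells, at most 55.4 in any other group, and correlated with the chosen one at r = 0.39 over the 53 arrays. For Pax3 another probe set read 354, 384 and 412 in Sox1-GFP cells and 31.6 at most in neuronal stem cells, the reverse of the chosen probe set (195 to 218 and 396 to 419), and the Pax3 rise in neuronal stem cells was not called with the mean over probe sets or with the most variable one. For Pknox2, a TALE factor related to Meis, the second probe set read 373, 374 and 388 in Sox1-GFP, 146 and 173 in neuronal stem cells and 87.6 to 111 in wild-type cells at day 6, against 21.6 to 39.6 in undifferentiated wild-type cells. Which of these probe sets reports the transcript was not tested, and the levels of Pax3, Pax7 and Pknox2 given above hold for the chosen probe set. The second Msx1 probe set followed the chosen one (r = 0.9), as did 2 of the 3 other Meis2 probe sets over all 53 arrays (r = 0.99 and 0.98), although the day 2 Meis2 calls were lost with the mean over probe sets.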

How the data were processed

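The deposited values are linear intensity units per probe set, 1 table of 45037 probe sets for each of 53 arrays, and the steps by which the authors summarised and scaled these intensities are not given in the sources used here. Probe sets were named from the platform annotation: 34945 carried 1 symbol, 932 several and 9160 none. Per gene the probe set of highest mean was kept, and 13807 of 18193 genes lay above the array median in at least 2 arrays. Values were taken as log2(signal + 32) and fitted with limma 3.58.1 (R 4.3.3) over all arrays, with 1 mean per group, 38 residual and 4.6 prior degrees of freedom. Adjusted p-values are Benjamini-Hochberg values over all 13807 genes within each comparison. Calls required both an adjusted p under 0.05 and at least a 2-fold difference. Comparisons numbered 18, and 5 more (the Eed-null against Ezh2-null comparisons, Sox1-GFP against T-GFP, and neuronal stem cells against Sox1-GFP) were chosen after seeing the data. The genes and gene lists were chosen with earlier results of these data known. All genes of the list are named, those called in a comparison with their values, and of the other homeobox genes up to 4 per comparison by smallest adjusted p. The scripts were tested on simulated data. Alternatives changed the scaling, pseudocount, filter, fold minimum, probe set, blocks, array sets and each array in turn. The number of arrays limits the precision.

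Replicate numbers were checked by the correlation of deviations from the group means over genes. Same-numbered Ezh2-null and wild-type arrays correlated at 0.57 to 0.7 at day 2 (4 pairs) and 0.38 to 0.72 at day 6 (5 pairs). They were read as pairs, but the array sets follow the numbers there, so pairing and a shared set cannot be told apart. The correlations were -0.02 to 0.29 at day 0 and -0.2 at day 8, and -0.17 to 0.14 for Eed-null arrays, which were not read as pairs.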

Additional observations from a re-analysis of the deposited data

Results flagged for a closer look

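Arrays were examined for genes called in at least 1 comparison, in each group of 4 to 7 arrays. In 8 of these 140 sets, 1 array lay far from the others of its group. Chance gives about 5% of sets. In the Eed-null day 0 group this was replicate 2 for 3 genes: Pax3 at 218.4 against 157.3 to 173.1, Barx1 at 184.8 against 135.2 to 145.4, and Msx1 at 235.9 against 141.6 to 155.7. In the Ezh2-null day 0 group it was En1 at 5.6 in replicate 3 against 20.7 to 23.1, and Prrx1 at 65.9 in replicate 6 against 46.7 to 52.7. In the Ezh2-null day 2 group it was Lhx5 at 8.2 in replicate 4 against 25.2 to 26.2, and Emx2 at 24.1 in replicate 3 against 32.3 to 32.8. In undifferentiated wild-type cells it was Barx1 at 41.8 in replicate 5 against 51.4 to 57.4. Lhx5, En1 and Emx2 were at background in the groups concerned.

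The change from day 0 to day 6 differed from that of wild-type cells for Msx1 in Ezh2-null cells (-1.8, limma adjusted p = 4.3e-08) and in Eed-null cells (-1.56, adjusted p = 2e-05). It also differed for Gbx2 in Eed-null cells (1.06, adjusted p = 0.0019).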

How the results depend on the processing

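Of 111 pairs of a gene and a comparison that were called, 61 were called under every alternative run, 96 with each array left out in turn, and 0 reversed direction. Dropping the filter or fitting limma with a trend left all 23 counts within 1.5 times. In what follows the day in brackets belongs to the comparison named before it, and the main counts stand in the report. With a 1.5-fold minimum the counts were 8 and 6 for Eed-null against wild type (days 0 and 6), 6 for Ezh2-null against wild type (day 6), 7, 2 and 2 for Eed-null against Ezh2-null (days 0, 2 and 6), 13 for wild type and 14 for Ezh2-null cells from day 0 to day 6, 6 and 5 for the differences of change (Eed-null, Ezh2-null), 13 for Sox1-GFP, 8 for T-GFP and 17 for neuronal stem cells against Sox1-GFP. With no minimum these were, in the same order, 13 and 9, 8, 15, 2 and 2, 18 and 20, 8 and 5, 16, 11 and 18, and also 7 and 19 for wild type at days 2 and 8, 11 for Eed-null cells from day 0 to day 6 and 16 for Sox1-GFP against T-GFP. The higher pseudocount, which shrinks differences between low values, gave 0, 0 and 1 for Eed-null against wild type (days 0, 2 and 6), 0, 1 and 0 for Ezh2-null (days 2, 6 and 8), 0 and 0 for Eed-null against Ezh2-null (days 0 and 6), 1 and 3 for wild type (days 2 and 6), 3 and 1 for Ezh2-null and Eed-null cells from day 0 to day 6, 1 for the Eed-null difference of change, 3 for T-GFP, 6 for neuronal stem cells and 7 for these against Sox1-GFP. A pseudocount of 8 gave 6 and 6 for Eed-null (days 0 and 6), 1 for Ezh2-null (day 0), 4, 2 and 3 for Eed-null against Ezh2-null, 12 for wild type (day 6) and 4 for each difference of change. Centring each array on its median gave 1 for Eed-null (day 0) and 0 for Eed-null against Ezh2-null (day 0), quantile normalisation 0 and 1 for the latter (days 0 and 2). The mean of all probe sets gave 1 for Eed-null and 0 for Ezh2-null (day 2) and 1 for Eed-null against Ezh2-null (day 0), and the most variable probe set 1 and 1 (day 2) and 2 for the Ezh2-null difference of change. The cell line as a random block gave 1 and 0 for Eed-null and Ezh2-null and 1 for wild type (day 2), a filter at the 75th percentile also 1 for the last, and a fit of only the arrays compared 0 and 1 for Ezh2-null (days 2 and 6). The array set as a block and the second set alone gave 5 for Eed-null (day 6), the second set alone 2 for Eed-null against Ezh2-null (day 6) and 2 for the Ezh2-null difference of change, which was 3 in the first set. With wild-type day 0 replicates 4 to 7 only the differences of change gave 1 (Eed-null) and 2 (Ezh2-null). Eed-null arrays share only a number with wild type: the replicate block gave 5 (day 0) and 1 (day 2), and it changed no other count by over 1.5 times. With the 75th percentile as the limit 18 genes were at background throughout. The cause of these shifts was not tested.

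Leaving out 1 array at a time gave 2 to 4, 0 to 2 and 2 to 4 genes for Eed-null against wild type (days 0, 2 and 6), 0 to 1, 0 to 2, 2 to 3 and 0 to 1 for Ezh2-null (days 0, 2, 6 and 8), 1 to 4, 0 to 1 and 1 to 2 for Eed-null against Ezh2-null, 1 to 2 and 5 to 8 for wild type (days 2 and 6), 8 to 11 and 5 to 6 for Ezh2-null and Eed-null cells from day 0 to day 6, 1 to 3 and 1 to 2 for the differences of change (Eed-null, Ezh2-null), 4 to 6 for T-GFP, 13 to 14 for neuronal stem cells and 10 to 11 for Sox1-GFP against T-GFP. Centring each array on its median moved the share of higher calls among all called genes from 67.3% to 34.6% for Eed-null (day 0), 64.8% to 32.8% for Eed-null against Ezh2-null (day 0), 57.6% to 45.4% and 67.7% to 46.5% for wild type (days 6 and 8), 53.1% to 41.4% for Ezh2-null cells from day 0 to day 6, 58.6% to 46.5% for T-GFP, 53.1% to 39.1% for neuronal stem cells and 48.5% to 72.7% for the Eed-null difference of change; quantile normalisation moved Sox1-GFP from 69.5% to 59.2%. Signals near the array median, as for Lhx2, Emx2 and En1, lie near background and set the limit of what could be called.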
